A study of Homo sapiens with 6 samples.

Results

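Expression of the collagen genes was compared between A673 and SK-N-MC cells and, within each line, between siRNAs. A collagen gene was any probe set whose single annotated symbol reads COL, a number, A and a number with nothing after it. This gave 45 probe sets for 43 genes out of 18417 named genes, and for COL11A2, the one gene with several probe sets, the one with the highest mean over the 6 arrays was kept. The 2 lines are established human cell lines derived from Ewing sarcoma, which arises mostly in bone. Cells of each line received a control siRNA, an siRNA against DKK2 (siDKK2) or one against ITM2A (siITM2A), and 1 array was run for each line and siRNA. DKK2 is a secreted modulator of Wnt signalling and ITM2A a membrane protein used as an independent knock-down; the labels number the ITM2A oligonucleotide 7 in A673 and 1 in SK-N-MC.

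Collagens are extracellular proteins whose chains wind into a triple helix, either from copies of 1 gene product or from the products of several genes. Fibrillar collagens form the load-bearing fibres of bone, skin and tendon, and FACIT collagens (fibril-associated collagens with interrupted triple helices) sit on those fibres. Collagen IV forms the sheet of basement membranes, collagen VI forms beaded filaments around cells, and a few collagens span the cell membrane. In bone, collagen I is the main protein of the matrix that mineralises.

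The arrays were alike in overall level, with medians of 3.35 to 3.44 on the log2 scale over 33297 probe sets. They correlated at 0.986 to 0.991 within a line and at 0.959 to 0.965 between lines, across probe sets. With its own siRNA DKK2 was left at 53.0% (A673) and 35.1% (SK-N-MC) of the control level, and ITM2A at 8.86% and 9.55%. The Ewing sarcoma marker CD99 was bright on every array (9.79 to 10.73), and the endothelial marker list stayed at or below 2.92 on every array. That list held no gene called between lines, against 28.5% of all named genes. Of the 43 collagen genes, 20 had a mean at or above the median gene mean of 4.04; the other 23 are called dim here. No background signal was measured, so a dim value is not a statement that a gene was silent.

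The clearest differences among the collagen genes were between the cell lines. COL3A1 and COL5A2 were higher in A673, COL1A2, COL16A1, COL19A1 and COL6A3 were higher in SK-N-MC, and these 6 differed at least 2-fold. In all, 19 of the 43 genes (44.2%) passed the threshold, 11 higher and 8 lower in A673, against 28.5% of all named genes (limma, siRNA as a term, adjusted p under 0.05). By direction the background was 13.8% higher and 14.7% lower. Of the 19 called genes 14 were among the 20 brighter members and 5 among the 23 dim ones. The share of all named genes called within each brightness group is not given, so these counts have no background. Brightness is a mean over both lines. COL3A1, at 3.61 on average in SK-N-MC, and COL19A1, at 3.04 in A673, thus count as brighter through the other line. The median difference over the 43 genes was -0.03, beside -0.02 over all named genes. Over the brighter collagen genes alone it was 0.29, a value for which no median of all brighter named genes is given. Each line is bulk RNA, in which fewer cells of a type and less RNA per cell cannot be told apart.

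**Figure D1:**
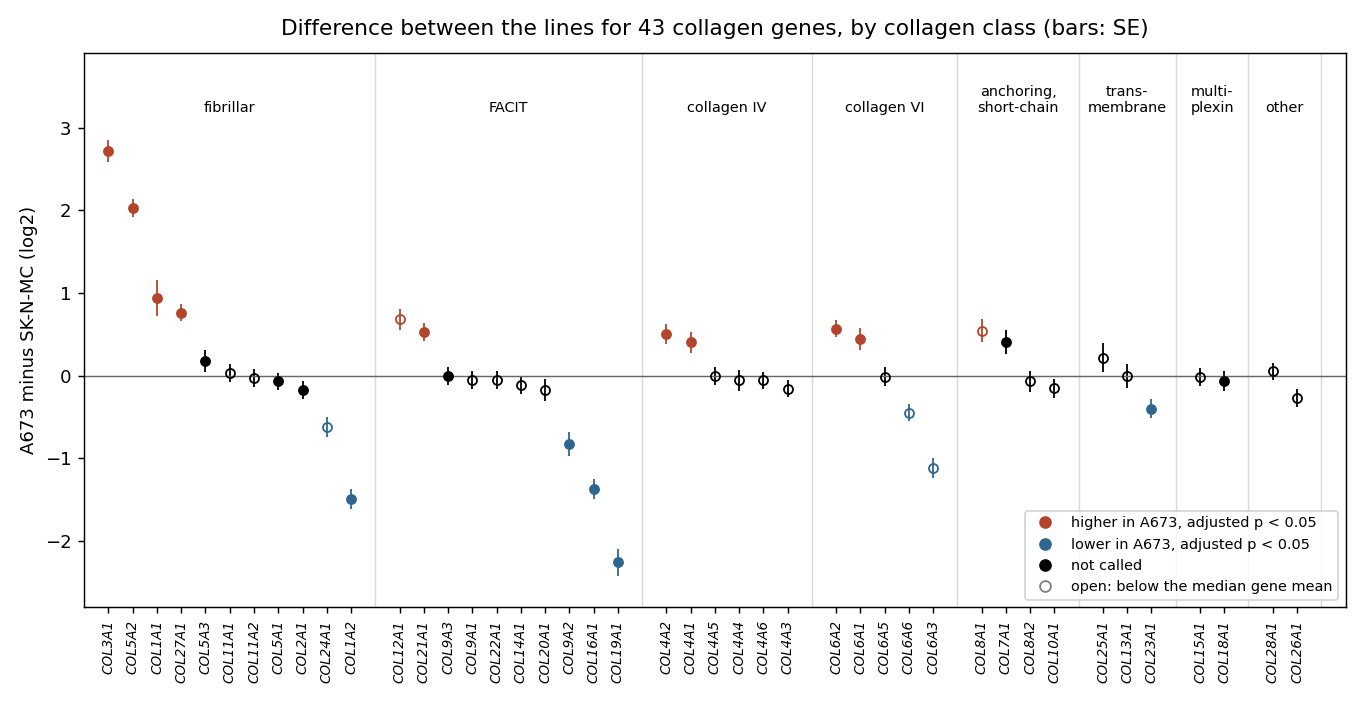
Difference between A673 and SK-N-MC (log2, vertical axis) for each of the 43 collagen genes, grouped by collagen class; points are limma estimates over 3 arrays per line, bars are standard errors, and open points are dim genes. COL3A1 (2.72) and COL5A2 (2.03) stand highest, COL19A1 (-2.26) lowest, and fibrillar, FACIT and collagen VI genes lie on both sides of 0.

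Upstream sequences are shown for 6 members that differed between the lines. They cover a pair of neighbouring genes that share their upstream region, collagen VI chains that differed in opposite directions, and FACIT genes that were higher in SK-N-MC. COL4A1 and COL4A2 are read from opposite strands, and the first sequence is all that lies between their start sites, 126 bases at chr13:110307158-110307283 on the plus strand. The others are the 250 bases before each start site, at chr21:46097862-46098111 (plus strand) for COL6A2, chr2:237414165-237414414 (minus strand) for COL6A3, chr1:31704018-31704267 (minus strand) for COL16A1 and chr6:69866306-69866555 (plus strand) for COL19A1. All are RefSeq sequence of build GRCh38.p14, written 5′ to 3′, and capitals mark the letters of the CCAAT box (CCAAT), the GC box (GGGCGG) and the TATA box (TATAAA) on either strand.
COL4A1 and COL4A2: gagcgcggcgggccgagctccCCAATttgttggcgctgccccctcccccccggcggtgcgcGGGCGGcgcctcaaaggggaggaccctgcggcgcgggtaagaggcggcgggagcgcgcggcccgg
COL6A2: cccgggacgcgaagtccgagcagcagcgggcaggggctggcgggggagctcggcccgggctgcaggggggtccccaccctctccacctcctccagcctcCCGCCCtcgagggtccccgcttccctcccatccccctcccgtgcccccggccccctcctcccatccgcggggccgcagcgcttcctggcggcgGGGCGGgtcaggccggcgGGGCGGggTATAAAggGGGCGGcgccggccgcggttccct
COL6A3: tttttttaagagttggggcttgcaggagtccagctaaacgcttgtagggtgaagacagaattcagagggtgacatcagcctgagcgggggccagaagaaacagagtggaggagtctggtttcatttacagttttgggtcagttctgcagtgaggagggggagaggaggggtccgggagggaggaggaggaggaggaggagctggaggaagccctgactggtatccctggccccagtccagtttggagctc
COL16A1: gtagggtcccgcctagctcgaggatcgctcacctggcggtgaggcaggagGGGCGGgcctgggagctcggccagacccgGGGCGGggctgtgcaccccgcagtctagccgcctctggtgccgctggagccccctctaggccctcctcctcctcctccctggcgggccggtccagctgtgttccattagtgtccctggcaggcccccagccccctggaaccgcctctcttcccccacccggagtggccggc
COL19A1: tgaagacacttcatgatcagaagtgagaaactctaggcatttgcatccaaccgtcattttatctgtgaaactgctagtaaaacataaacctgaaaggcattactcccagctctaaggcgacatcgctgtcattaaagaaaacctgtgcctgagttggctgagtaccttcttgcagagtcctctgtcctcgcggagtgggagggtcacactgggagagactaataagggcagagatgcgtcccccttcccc

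These sequences differ in composition. The COL4A1 and COL4A2 stretch is 80.2% G and C and holds 1 CCAAT and 1 GC box. COL6A2 holds 4 GC boxes and a TATAAA at 79.6% G and C, COL16A1 holds 2 GC boxes at 73.2%, and COL6A3 (56.0%) and COL19A1 (48.4%) hold none of the motifs searched. Of the 19 genes called between the lines 13 had an entry, and COL1A1, COL1A2, COL3A1 and COL5A2 had none. Over the 31 collagen genes with an entry, a GC box on either strand was found before 21 (67.7%), against 46.2% of 27305 genes in the table. CCAAT was found before 10 (32.3%, against 37.0% of all) and TATAAA before 6 (19.4%, against 13.0%). The paired motif GGAAGGAA, of the kind bound by the Ewing sarcoma fusion protein in its repeated form, was found before none of the 31, against 3.76% of all genes. A gene with several start sites counted as holding a motif if any of its windows held it, and a match is a description of the letters only.

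Among the fibrillar collagens 4 genes were higher in A673, 2 were lower and 5 of the 11 were not called. COL3A1, whose homotrimer accompanies collagen I in skin and vessel walls, read 6.43, 6.52 and 6.03 in A673 (control, siDKK2, siITM2A) and 3.47, 3.68 and 3.68 in SK-N-MC. The groups did not overlap, and the difference of 2.72 ± 0.14 (SE, n = 3 arrays per line) corresponds to 6.58-fold (limma, adjusted p = 3.12e-06). COL5A2, a chain of collagen V, which is built into collagen I fibrils and limits their width, read 6.46, 6.44 and 6.63 in A673 and 4.38, 4.52 and 4.55 in SK-N-MC. Its difference was 2.03 ± 0.11, or 4.08-fold (limma, adjusted p = 3.58e-06). Its partner chain COL5A1 read 5.33 to 5.73 over all arrays and differed by -0.07 ± 0.11 (adjusted p = 0.715).

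The chains of collagen I differed in opposite directions. Collagen I is normally built from COL1A1 and COL1A2 products together. COL1A1 read 7.21, 6.24 and 7.23 in A673 and 5.80, 6.07 and 5.99 in SK-N-MC, a difference of 0.94 ± 0.22 (1.92-fold; limma, adjusted p = 0.0114). The A673 siDKK2 array lay close above the SK-N-MC arrays, and the other A673 arrays well above them. The COL1A1 call was lost without either siITM2A array (0.79, adjusted p = 0.116) and kept without the siDKK2 arrays (1.32). COL1A2 read 7.63, 7.58 and 7.77 in A673 and 9.09, 9.34 and 9.03 in SK-N-MC. It was lower on every A673 array, with a difference of -1.49 ± 0.12, or 2.82-fold (adjusted p = 4.9e-05).

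COL27A1, a fibrillar collagen of cartilage, was higher in A673 (5.15 to 5.42) than in SK-N-MC (4.35 to 4.63), by 0.76 ± 0.10 (adjusted p = 0.00068). The dim gene COL24A1, a fibrillar collagen of developing bone, was lower in A673 (2.39 to 2.84 against 3.24 to 3.27; difference -0.62 ± 0.12, adjusted p = 0.00498). The uncalled fibrillar genes COL2A1, COL5A1, COL5A3, COL11A1 and COL11A2 differed by -0.17 to 0.18. COL2A1 is the main collagen of cartilage. None of the 6 chondrocyte markers, COL2A1 among them, was called between the lines, against 28.5% of all named genes.

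Of the 10 FACIT genes 2 were higher in A673 and 3 lower, among them the member with the lowest difference of all. COL19A1, a FACIT collagen of basement membrane zones, read 3.20, 2.86 and 3.07 in A673 and 4.93, 5.32 and 5.64 in SK-N-MC. The groups lay far apart, with a difference of -2.26 ± 0.16, or 4.78-fold (adjusted p = 2.29e-05). COL16A1, found along small fibrils and at cell contacts, read 5.32, 5.08 and 5.24 in A673 and 6.47, 6.72 and 6.55 in SK-N-MC, a difference of -1.37 ± 0.12 (adjusted p = 7.77e-05). COL9A2, a chain of the cartilage collagen IX, read 4.56, 4.09 and 4.30 in A673 and 5.04, 5.29 and 5.12 in SK-N-MC (difference -0.83 ± 0.14, adjusted p = 0.00264). Its partner chains were not called: COL9A3 differed by -0.01 ± 0.11 and the dim COL9A1 by -0.05 ± 0.11.

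In the other direction, COL21A1, a FACIT collagen of vessel walls, read 6.44, 6.58 and 6.89 in A673 and 5.87, 5.97 and 6.48 in SK-N-MC. These ranges overlap, because SK-N-MC with siITM2A lay above A673 with the control siRNA, but the difference within each siRNA was alike (0.53 ± 0.11, adjusted p = 0.00585). The call rests on the siRNA term and was lost without it (adjusted p = 0.0563). COL12A1, a FACIT of tendon and dense tissue, was dim and higher in A673 (2.84 to 3.20 against 2.22 to 2.45; 0.68 ± 0.13, adjusted p = 0.0048). The uncalled FACIT genes differed by -0.17 to -0.01.

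Collagen VI repeated the pattern of chains that differed in opposite directions. COL6A1, COL6A2 and COL6A3 products normally assemble together. COL6A1 read 6.14, 5.66 and 5.90 in A673 and 5.41, 5.56 and 5.39 in SK-N-MC (0.44 ± 0.14, adjusted p = 0.0406). COL6A2 read 5.73, 5.71 and 5.57 against 5.07, 5.12 and 5.11 (0.57 ± 0.11, adjusted p = 0.00383). The dim COL6A3 ran the other way, at 3.31, 3.36 and 3.50 in A673 and 4.14, 4.64 and 4.74 in SK-N-MC (-1.12 ± 0.12, adjusted p = 0.000238). All 3 sets of arrays were free of overlap. COL6A6, a chain that can take the place of COL6A3, was dim and also lower in A673 (-0.45 ± 0.10, adjusted p = 0.0114), and COL6A5 read 1.82 to 2.28 with no call.

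Of the 6 collagen IV genes the widely expressed pair was higher in A673. COL4A1 read 6.32, 5.92 and 6.10 in A673 and 5.67, 5.81 and 5.66 in SK-N-MC (0.40 ± 0.13, adjusted p = 0.0465). COL4A2 read 6.59, 6.58 and 6.70 against 5.98, 6.34 and 6.02 (0.50 ± 0.12, adjusted p = 0.0145). Both members of the head-to-head pair printed above were thus called higher in the same line. Each of the 2 calls was kept in only 2 of the 6 fits that left out 1 array. COL4A3, COL4A4, COL4A5 and COL4A6, the chains of specialised basement membranes such as that of the kidney, were dim and differed by -0.16 to -0.0036.

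Among the remaining classes, the dim COL8A1, a short-chain collagen of vessel walls and cornea, was higher in A673 (0.54 ± 0.14, adjusted p = 0.0182). COL23A1, a transmembrane collagen, was lower in A673 (4.28 to 4.56 against 4.83 to 4.90; -0.40 ± 0.11, adjusted p = 0.0258). COL7A1, which anchors basement membranes to the tissue beneath, differed by 0.41 ± 0.15 and was not called (adjusted p = 0.08). The multiplexins COL15A1 and COL18A1, whose ends can be cut free as signalling fragments, differed by -0.02 and -0.06. In all, 24 members were not called, and 18 of them were dim, at 1.82 to 4.12 on every array.

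**Figure D2:**
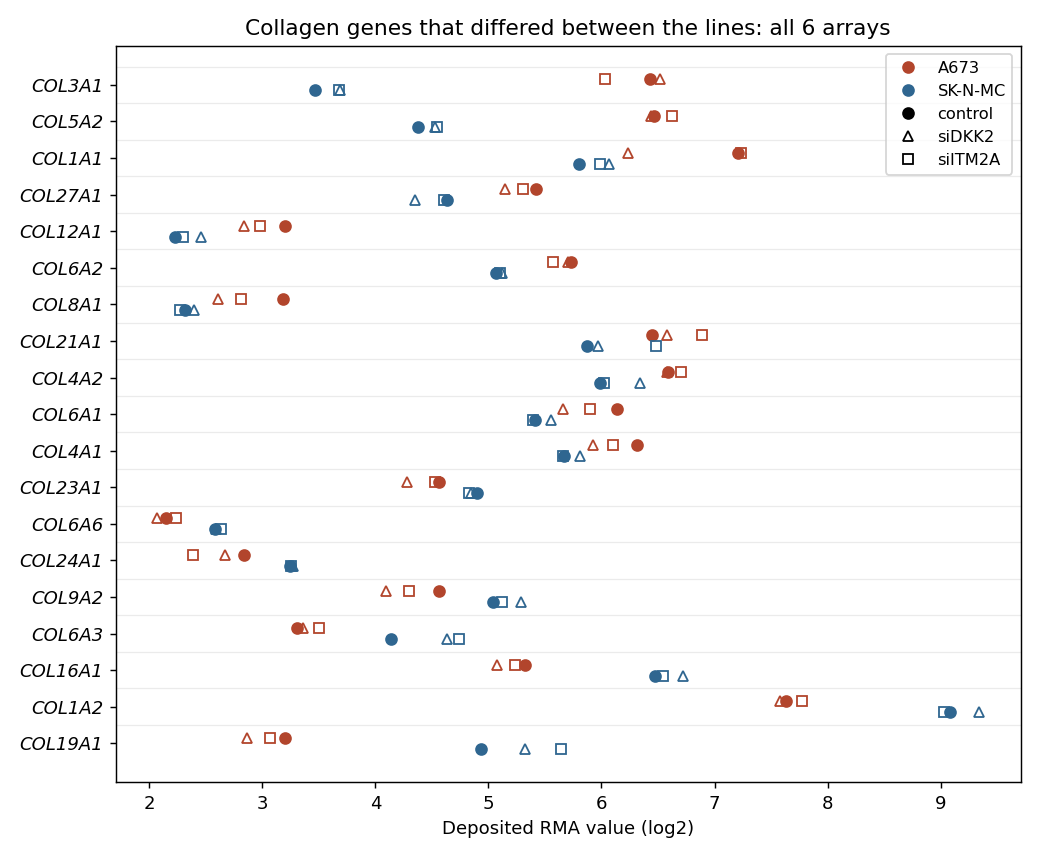
Deposited value (log2, horizontal axis) on each of the 6 arrays for the 19 collagen genes called between the lines; colour gives the line and shape the siRNA, and genes are ordered by their difference. The lines overlap for COL21A1 only, and the A673 siDKK2 point of COL1A1 lies at 6.24, away from the other A673 points at 7.21 and 7.23.

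The 3 arrays of a line did not overlap those of the other for 10 collagen genes higher in A673 (23.3%, against 18.1% of all named genes) and 9 lower (20.9%, against 20.8%). Of the 19 calls 12 were kept in every fit that left out 1 array: COL3A1, COL5A2, COL27A1, COL12A1, COL21A1 and COL6A2 (higher in A673), and COL1A2, COL24A1, COL19A1, COL16A1, COL9A2 and COL6A3 (lower). The COL1A1 call was kept in 4 of the 6 such fits, those of COL4A1, COL4A2, COL6A1, COL6A6 and COL8A1 in 2 each, and that of COL23A1 in 0. Leaving out either array of an siRNA gives the same fit, so the 6 fits hold only 3 different ones. The count of calls fell to 12 without the A673 or the SK-N-MC siITM2A array, which give the same fit, since the siRNA term then takes up the array left alone.

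Some collagen genes lie side by side in the genome, and their neighbours were looked up in RefSeq's order of protein-coding genes after the values were seen. COL3A1 and COL5A2 are adjacent. GULP1, next to COL3A1 on the other side, was higher in A673 too (0.97 ± 0.19, adjusted p = 0.00548), as was TFPI, the next gene (1.68 ± 0.17, adjusted p = 0.000151). Beyond COL5A2, WDR75 differed by 0.08 ± 0.11 (adjusted p = 0.665) and SLC40A1 was lower (-0.97 ± 0.10, adjusted p = 0.000212). COL12A1 was higher in A673 while its nearest 2 genes on each side, SLC17A5, CD109, COX7A2 and TMEM30A, were all lower (-1.05 to -0.41). COL19A1 lies between LMBRD1, which was lower in A673 (-1.71 ± 0.10, adjusted p = 8.21e-06), and the uncalled COL9A1, followed by FAM135A, which was lower too (SE 0.16, adjusted p = 0.00148). COL6A1 and COL6A2 are adjacent and both were higher in A673, whereas PCBP3 beside COL6A1 was lower (-1.94 ± 0.13, adjusted p = 1.53e-05). These loci are examples, and of all named genes 13.8% were called higher in A673 and 14.7% lower. Other called members had no called gene among the nearest 2 on each side. These include COL6A3 (ACKR3, COPS8, MLPH and PRLH) and COL27A1 (AMBP, KIF12, ORM1 and ORM2). Copy number was not measured here, and its part in these differences was not tested.

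The genes that fold and modify collagen chains were mostly higher in A673. Of 18 measured, 13 were higher and 0 lower, against 13.8% and 14.7% of all named genes, with a median difference of 0.62 beside -0.02 over all named genes. PLOD3, a lysyl hydroxylase that also adds sugars to collagen, differed by 1.53 ± 0.11 (7.03 to 7.30 against 5.59 to 5.69; adjusted p = 1.61e-05). SERPINH1, the collagen chaperone HSP47, differed by 1.24 ± 0.11 (8.94 to 9.26 against 7.59 to 8.05; adjusted p = 5.61e-05). FKBP14 and PLOD1 followed at 0.93 ± 0.12 and 0.89 ± 0.11. The uncalled members were P4HA2, P3H3, P3H4, CRTAP and TMEM38B, at -0.33 to 0.47. Leaving out 1 array gave 11 to 14 calls.

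Of 18 procollagen export, cleavage and crosslinking genes 6 were higher in A673 and 1 lower (all named genes 13.8% and 14.7%), with a median difference of -0.05. The crosslinking enzyme LOXL2 differed by 2.73 ± 0.14 (adjusted p = 3.44e-06), and SEC24D, a coat protein of the vesicles that carry procollagen, by 1.88 ± 0.14 (adjusted p = 2.41e-05). TLL1, a protease that trims the chains' C-terminal ends, differed by 1.22 ± 0.14. PCOLCE, which enhances that cleavage, was the one lower gene, at -1.23 ± 0.11 (adjusted p = 9.33e-05).

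Collagen receptors gave 3 higher and 2 lower genes of 9 (all named genes 13.8% and 14.7%; median 0.10). The receptor tyrosine kinase DDR2, which binds fibrillar collagen, read 8.40 to 8.56 in A673 and 6.06 to 6.69 in SK-N-MC (2.10 ± 0.13, adjusted p = 7.5e-06). ITGB1, the shared chain of the collagen-binding integrins, differed by 1.44 ± 0.11, whereas ITGA2 (-0.69 ± 0.13) and ADGRG6 (-1.71 ± 0.17), a receptor for collagen IV, were lower. The lower ITGA2 and ADGRG6 and the higher ADGRG1 had means below the median gene mean of 4.04. The fit of brighter genes alone left them out before testing. Its 2 receptor calls, both higher, thus say nothing on direction.

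The matrix proteins that accompany collagen gave 7 higher and 3 lower genes of 16 (all named genes 13.8% and 14.7%; median 0.06). FN1, fibronectin, on which collagen fibrils are laid down, differed by 4.79 ± 0.18 and FBN1, fibrillin, by 2.66 ± 0.12. LAMC1, a laminin chain of basement membranes, differed by 2.25 ± 0.11. DCN, decorin, which coats collagen fibrils, was lower on every A673 array (2.16 to 2.25 against 4.09 to 5.23; difference -2.34 ± 0.21, adjusted p = 7.39e-05).

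Genes of collagen breakdown gave 5 higher and 1 lower of 10 (all named genes 13.8% and 14.7%; median 0.41). The collagenase gene MMP1 had the largest difference of the list (8.44 ± 0.14), and the gelatinase genes MMP2 and MMP9 differed by 2.69 ± 0.12 and 1.74 ± 0.25. TIMP3, an inhibitor of metalloproteinases, was lower (-1.65 ± 0.14). Transcription and signalling genes divided evenly, with 4 of 16 higher and 4 lower (all named genes 13.8% and 14.7%; median 0.11). TGFBR2, a receptor for TGF-beta, differed by 2.82 ± 0.12 and CCN2, a target of that pathway, by 1.32 ± 0.13, while the ligand TGFB3 (-0.98 ± 0.13) was lower in A673. SOX5, a cartilage transcription factor, was 2.29-fold higher (adjusted p = 0.00131).

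**Figure D3:**
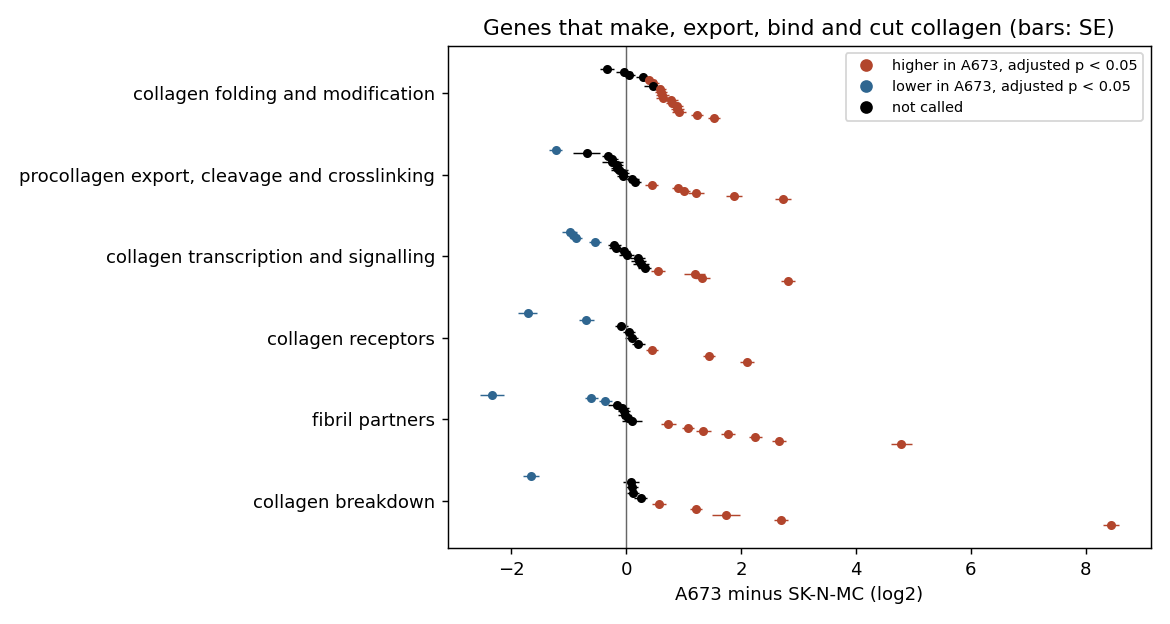
Difference between A673 and SK-N-MC (log2, horizontal axis) for the genes of 6 lists of collagen partners, with standard errors; points within a list are spread vertically by rank. The folding list has 13 of 18 genes called higher in A673 and 0 called lower, the other lists have calls on both sides.

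Markers of matrix-forming cells also differed between the lines, in both directions. The marker counts below stand beside 13.8% of all named genes called higher in A673 and 14.7% called lower. Of 6 fibroblast markers THY1 was higher in A673 (5.17 ± 0.19), and PDGFRB, DCN and FAP were lower (-0.79 ± 0.11, -2.34 ± 0.21 and -3.39 ± 0.16). Sums of a marker list are given here as sums of log2 values on each array, in which opposite differences offset each other. For the fibroblast markers the sum was 21.3 to 22.4 in A673 and 22.4 to 23.9 in SK-N-MC. Of 4 osteoblast markers ALPL alone was called, at -4.20 ± 0.11, and the sum was 11.9 to 12.1 in A673 and 15.8 to 16.0 in SK-N-MC. None of 5 endothelial markers was called (12.4 to 12.9 against 12.3 to 12.5), nor of the 6 chondrocyte markers (19.6 to 20.2 against 19.5 to 20.1). Of 6 Ewing sarcoma markers 3 were higher and 2 lower in A673, and their sums were 46.5 to 47.9 and 45.6 to 46.8. The part of these cell characters in the collagen differences was not tested.

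The series title ties DKK2 to bone destruction, invasion and metastasis, and the siRNA comparisons show how collagen transcripts stood when it was silenced. With siDKK2 none of the 43 genes was called against the control siRNA (limma, cell line as a term), against 0.0109% of all named genes. At an unadjusted p under 0.05 there were 0 of 43, against 8.68% of all named genes. The lowest adjusted p was 0.589, for COL13A1. With siITM2A none was called either (background 0.0109%), nor between siDKK2 and siITM2A (background 0.0163%, of which 0.00543% higher with siDKK2). At an unadjusted p under 0.05 there were 2 of 43 with siITM2A, against 6.91% of all named genes, and 3 of 43 between the siRNAs, against 8.32%. The smallest adjusted p over all 3 comparisons was 0.483, for COL21A1 between siDKK2 and siITM2A. A p that misses the threshold does not show that a gene stayed the same, and the standard error of a difference was 0.13 to 0.27 for the members named below. The siDKK2 and siITM2A differences share the control arrays.

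Within A673, COL1A1 had the largest siDKK2 difference of the family. It stood at 7.21 with the control siRNA, 7.23 with siITM2A and 6.24 with siDKK2, and so was 1.97-fold lower with siDKK2 than with the control. A difference of -0.98 or lower was found for 143 of 18417 named genes (0.776%) in that line. COL1A1 was picked as the lowest of 43 genes by this same value, so that share does not measure how unusual it was. In SK-N-MC the same comparison gave 0.27 (5.80 and 6.07). The fitted difference over both lines was -0.36 ± 0.27 (adjusted p = 0.752). COL1A2, its partner chain, was close to its control value in A673 (-0.05) and 0.26 above it in SK-N-MC. The lowest value of all named genes in the A673 comparison was that of IFI44L, an interferon-induced gene (-4.71); its part in the collagen values was not tested. Each value rests on 1 array, so the difference between the lines was not tested.

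COL25A1 and COL7A1 joined COL1A1 at 1.5-fold or more below the A673 control with siDKK2. This makes 3 of 43 by the kept probe sets, against 3.48% of all named genes. COL7A1 read 4.93, 4.34 and 4.67 in A673 (control, siDKK2, siITM2A) and 4.08, 4.21 and 4.43 in SK-N-MC. The dim COL25A1, a transmembrane collagen known from amyloid plaques, read 3.43, 2.79 and 2.85 in A673 and 2.65, 2.77 and 3.00 in SK-N-MC. None was 1.5-fold higher with siDKK2 in either line (background 1.55% for A673, 1.06% for SK-N-MC), and none 1.5-fold lower in SK-N-MC (1.84%). Only COL1A1 was past 1.5-fold once arrays were centred on their medians or quantile normalized. No collagen gene reached 2-fold with an siRNA in either line. In A673 the 2-fold background was 0.0869% higher and 0.728% lower with siDKK2, 0.076% and 0.239% with siITM2A, and 0.125% and 0.505% between them. In SK-N-MC it was 0.076% and 0.201%, 0.109% and 0.076%, and 0.076% and 0.168%.

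Small differences from the control leaned opposite ways in the lines with either siRNA. With siDKK2 35 of 43 genes had lower values in A673 (81.4%, against 57.1% of all named genes), with a median of -0.20 beside -0.04 for all. In SK-N-MC 33 of 43 had higher values (76.7%, against 48.6%), with a median of 0.09 beside -0.01. Centring or quantile normalization kept both directions, with 30 or 31 lower in A673 and 31 or 32 higher in SK-N-MC. The siITM2A comparisons share the control arrays: there 32 of 43 were lower in A673 (74.4%, against 57.1%; median -0.15) and 32 of 43 higher in SK-N-MC (74.4%, against 47.6%; median 0.05). Between siDKK2 and siITM2A, which leaves the controls out, 27 were lower in A673 (62.8%, against 50.5% of all named genes) and 15 higher (34.9%, against 49.4%). In SK-N-MC 23 were lower (53.5%, against 49.4%) and 20 higher (46.5%, against 50.3%). Only 8 genes were higher in both lines with siDKK2 and 10 lower, or 18.6% and 23.3%, against 23.2% and 31.6% of all genes.

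By the smaller of the lines' values, the higher genes were COL5A1 (0.29 in A673 and 0.11 in SK-N-MC), COL6A5 (0.11 and 0.26), COL21A1 (0.13 and 0.10), COL14A1 (0.09 and 0.21) and COL3A1 (0.08 and 0.22). The lower genes were COL13A1 (-0.46 and -0.31), COL27A1 (-0.27 and -0.28), COL4A3 (-0.29 and -0.25), COL28A1 (-0.20 and -0.20) and COL8A2 (-0.24 and -0.15). None of these passed the test. Of the folding, export, receptor, partner, breakdown and transcription lists, none had a member called with either siRNA or between them.

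**Figure D4:**
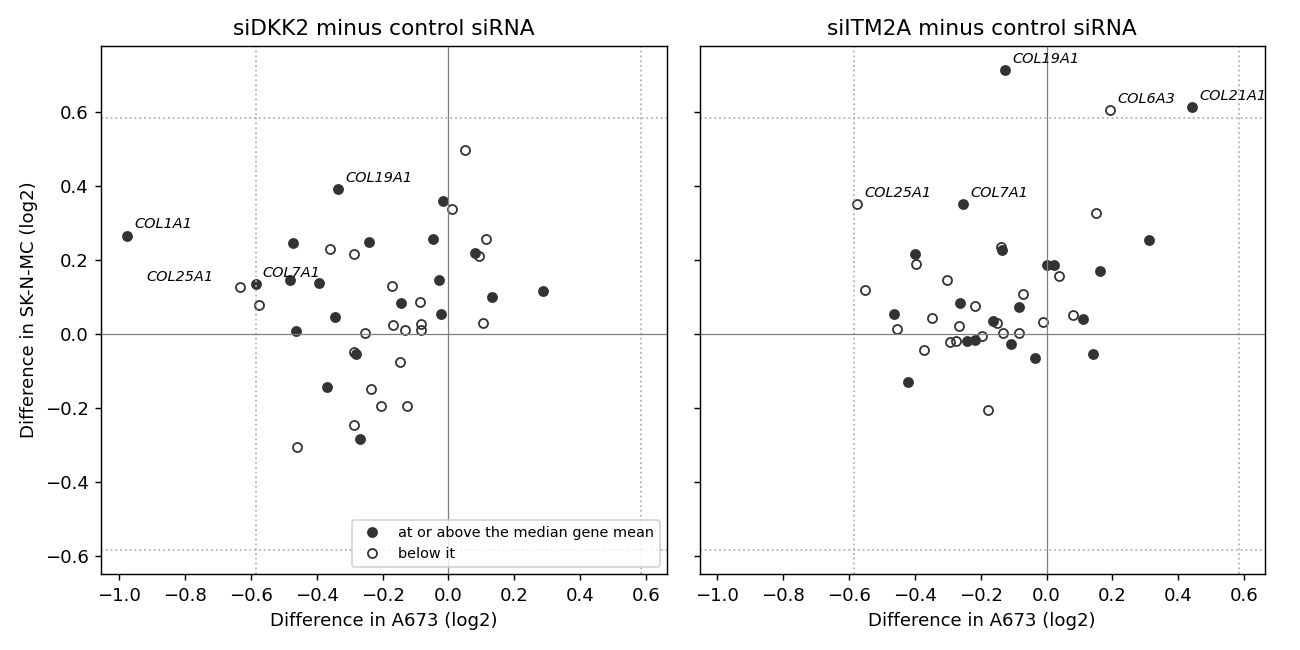
Difference from the control siRNA in A673 (horizontal, log2) and in SK-N-MC (vertical, log2) for the 43 collagen genes, siDKK2 on the left and siITM2A on the right; dotted lines mark 1.5-fold and open points are dim genes. With siDKK2 most points lie left of 0 and above 0, and COL1A1 lies farthest left at -0.98.

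With siITM2A the values that stood out were in SK-N-MC, where 3 genes were at least 1.5-fold higher (background 1.28%) and none lower (1.59%). COL21A1 differed by 0.61 there and by 0.44 in A673, a fitted difference of 0.53 ± 0.13 (unadjusted p = 0.00348, adjusted p = 0.623 by limma). COL6A3 differed by 0.60 and 0.19 (0.40 ± 0.15, adjusted p = 0.707), and was under 1.5-fold with centring. COL19A1 was 0.71 above its control in SK-N-MC and 0.13 below it in A673 (-0.13). In A673 none of the collagen genes was past 1.5-fold with siITM2A in either direction by its kept probe set (background 1.29% higher and 1.99% lower). The other COL11A2 probe sets, alike in value, read 3.71, 2.95 and 2.81 in A673 (control, siDKK2, siITM2A). The kept one read 3.69, 3.61 and 3.61, so the probe sets of this gene disagreed there. In SK-N-MC the others read 3.13, 3.02 and 2.86.

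By the smaller of the lines' values, COL21A1, COL5A1 (0.31 in A673, 0.25 in SK-N-MC), COL6A3, COL5A2 (0.16, 0.17) and COL10A1 (0.15, 0.33) led the genes higher with siITM2A in both lines. COL4A3 (-0.18, -0.21), COL9A3 (-0.42, -0.13), COL8A1 (-0.37, -0.04), COL23A1 and COL27A1 led the lower ones, and none passed the test.

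In SK-N-MC COL6A3 stood at 4.64 with siDKK2 and 4.74 with siITM2A, against 4.14 on the control array that both differences share. Between siDKK2 and siITM2A, COL21A1 was lower with siDKK2 in both lines (-0.31 and -0.52; -0.41 ± 0.13), as was COL2A1 (-0.37 and -0.33; adjusted p = 0.541), and neither passed. COL7A1 (-0.33 and -0.22), COL19A1 (-0.21 and -0.32) and COL18A1 (-0.21 and -0.18) were the next on that side. COL6A5 (0.46 and 0.21), COL9A3 (0.28 and 0.21), COL14A1, COL26A1 and COL6A2 led the other, again with no call. COL1A1 was at least 1.5-fold lower with siDKK2 than with siITM2A in A673, the 1 such gene of 43 (background 2.57%); none was higher (1.43%), and none was past that fold in SK-N-MC (1.43% higher and 1.75% lower).

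**Figure D5:**
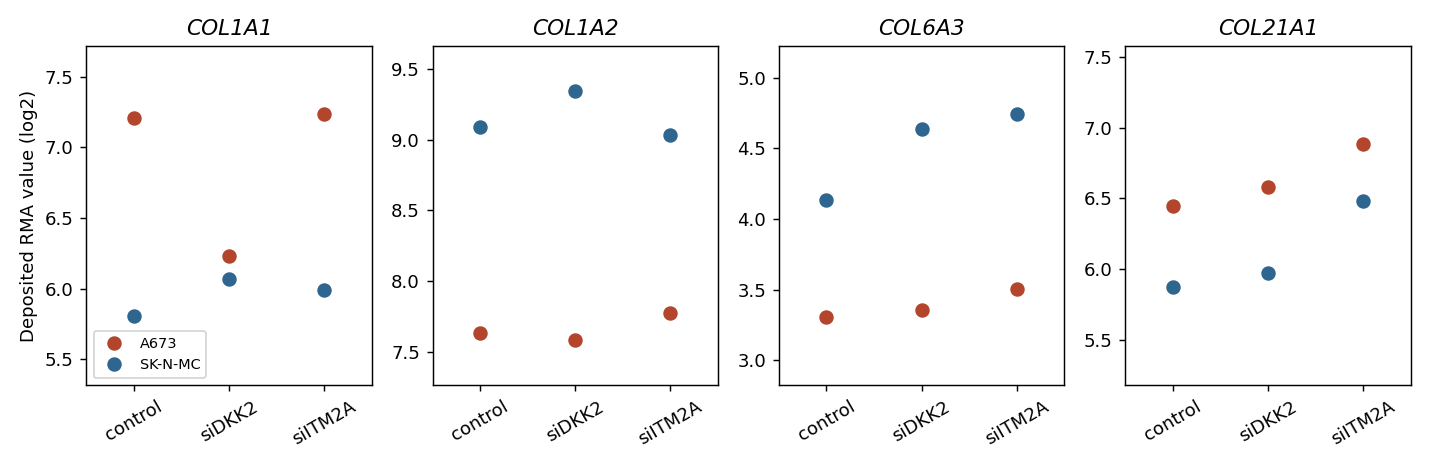
Deposited value (log2, vertical axis; each panel spans the same number of log2 units at its own level) by siRNA for COL1A1, COL1A2, COL6A3 and COL21A1, 1 point per array. COL1A1 in A673 is at 6.24 with siDKK2 against 7.21 and 7.23, COL1A2 stays higher in SK-N-MC with each siRNA, and COL21A1 is highest with siITM2A in both lines.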

How the data were processed

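Total RNA of the 2 lines was labelled and hybridised to 6 Affymetrix arrays. The authors' deposited values are RMA values per probe set made with Affymetrix Expression Console, per the submitters' processing notes, and are taken as log2 from their range of 1.02 to 13.4. For software version, settings and genome build, nothing is stated in the sources used here. RMA compresses differences of dim probe sets. Probe sets were named from GEO's annotation of the array; checking 19429 Entrez numbers against RefSeq changed no symbol. Of 33297 probe sets 19460 had 1 symbol, 1754 several and 12083 were not listed. Of the listed collagens, COL17A1 was not analysed here.

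All 18417 genes were fitted with limma 3.58.1 (R 4.3.3) with siRNA and line as terms, leaving 2 residual degrees of freedom (8.28 after moderation). P-values were adjusted by Benjamini-Hochberg over all genes. The arrays of a line differ in siRNA and no label states repeat cultures, so p-values measure only the spread between these arrays. The fit was tested on simulated data. Differences within a line rest on 1 array each and have no test.

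Members named are those called in any comparison, the brighter members of each class, and per siRNA comparison the 5 higher and 5 lower with the largest smaller-of-the-lines value; of the other lists, up to 4 called genes with the largest difference. The collagen genes, the partner lists and the rules were chosen with earlier results of these data known. Promoters came from a RefSeq table of GRCh38.p14; the 50 bases after each start were left out.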

Additional observations from a re-analysis of the deposited data

Results flagged for a closer look

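Among the collagen genes 4 differences from the control siRNA went opposite ways in the lines by at least 0.25 on the log2 scale in each. None of these contrasts was tested, as each rests on single arrays. With siDKK2, COL1A1 lay below its control in A673 (-0.98) and stood above it in SK-N-MC (0.27). COL19A1 differed by -0.34 and 0.39 with siDKK2. With siITM2A, COL25A1 was at -0.57 in A673 against 0.35 in SK-N-MC, and COL7A1 at -0.25 and 0.35.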

How the results depend on the processing

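The 19 calls between the lines became 12 to 17 when 1 array was left out and 14 to 19 under the other alternatives. The 14 came from the fit of brighter genes alone. That fit left out all 23 dim members before testing, 5 of the called genes among them. Without the siRNA term (no replicate block) 18 were called; COL4A1 was lost when arrays were centred on their medians (adjusted p = 0.0541). The median difference between the lines was 0.29 over brighter collagen genes alone, with no median of all brighter named genes given beside it. It was 0.12 from the control arrays alone (a value with no test), and -0.09 to 0.03 with 1 array left out. No alternative called a collagen gene with either siRNA. The median between siDKK2 and siITM2A ran from -0.1293 to 0.04646 with 1 array left out. Signs turned for small differences when 1 array was left out. COL3A1 with siDKK2 ran from -0.03824 (without the SK-N-MC control array) to 0.3381. With siITM2A, COL8A1 ran from -0.4531 to 0.03762 (without the A673 control array) and COL23A1 from -0.1217 to 0.02164 (without the SK-N-MC siITM2A array). Between siDKK2 and siITM2A, COL26A1 ran from -0.04241 (without the A673 siITM2A array; also below 0 without the SK-N-MC siDKK2 array) to 0.08657, and COL6A2 from -0.001132 (without the A673 siITM2A array) to 0.1578. Genes past 1.5-fold with siDKK2 in A673 numbered 3, and 1 with centring or quantile normalization. At 2-fold the count was 0 there, 0 with siITM2A in SK-N-MC and 0 between the siRNAs in A673. With probe sets averaged 1 gene passed with siITM2A in A673, namely COL11A2, the one gene with several probe sets. The cause of these shifts was not tested. Signal over background was not measured, so which dim genes lay above it is not known.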
